A study of Mus musculus with 16 samples.

Results

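The change that rimeporide made in primary mouse microglia was taken over both genotypes of the study together. All 16 libraries of the series were used, 8 from cells given rimeporide and 8 from cells given its vehicle DMSO, as the treatment labels name them, with genotype as a covariate. The groups were WT with rimeporide, WT with DMSO, Grn KO with rimeporide and Grn KO with DMSO, each with 4 libraries, and rimeporide was given at 2 uM for 72 h. Grn KO cells lack a working copy of Grn, the gene of progranulin. The sources used here do not name the strain or say how the allele was deleted. The cells came from cortex and hippocampus of newborn mice grown as mixed glial cultures, from which microglia were shaken loose, so they are a culture model without a named sort. Each library holds counts of 3' mRNA tags per gene. The labels call them biological replicates of each genotype without saying which cultures or litters gave them, so p-values measure the spread between these libraries, which may be partly technical.

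Rimeporide inhibits sodium-proton exchange, by which cells expel protons from the cytosol. Progranulin is a secreted protein that is delivered to lysosomes and cleaved there into granulins, and its loss disturbs lysosomal function in microglia. Type I interferons act through the receptor chains IFNAR1 and IFNAR2 on a complex of transcription factors that includes STAT2 and IRF9 and binds a DNA element called the ISRE (interferon-stimulated response element) near the start of antiviral genes. Microglia express many of these genes at a low tonic level in culture and strongly after virus or nucleic acid sensing.

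The genes that fell were led by interferon-stimulated genes, so the stretches that carry ISRE-type letters in their promoters are shown here, from RefSeq windows of the GRCm38.p6 build that reach from 250 bases before the annotated start to 50 bases after it. The letters searched were GAAA, any 2 bases and GAAA again, on both strands, with overlapping matches counted separately. Capitals mark each match, which reads TTTC, any 2 bases and TTTC where it lies on the other strand. The first 5 stretches are the 200 bases just before the annotated start, and the last, of Ifih1, is 28 bases around a match that begins 32 bases after it.
Ifit3b (chr19:34607757-34607956, plus strand): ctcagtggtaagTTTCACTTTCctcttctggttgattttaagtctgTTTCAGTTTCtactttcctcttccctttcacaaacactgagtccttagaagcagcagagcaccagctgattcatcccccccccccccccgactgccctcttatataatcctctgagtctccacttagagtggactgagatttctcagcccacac
Ifit3 (chr19:34583329-34583528, plus strand): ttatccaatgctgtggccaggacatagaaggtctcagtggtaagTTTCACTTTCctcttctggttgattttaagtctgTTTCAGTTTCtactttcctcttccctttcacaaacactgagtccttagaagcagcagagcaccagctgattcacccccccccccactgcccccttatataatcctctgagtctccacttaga
Isg15 (chr4:156200819-156201018, minus strand): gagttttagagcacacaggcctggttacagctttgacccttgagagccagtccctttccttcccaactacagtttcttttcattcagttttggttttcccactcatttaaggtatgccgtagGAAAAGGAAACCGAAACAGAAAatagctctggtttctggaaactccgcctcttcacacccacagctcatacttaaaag
Irgm2 (chr11:58214777-58214976, plus strand): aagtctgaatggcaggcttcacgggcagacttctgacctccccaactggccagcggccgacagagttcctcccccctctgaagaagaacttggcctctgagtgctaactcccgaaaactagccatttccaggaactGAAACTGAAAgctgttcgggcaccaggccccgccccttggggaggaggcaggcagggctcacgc
Slfn5 (chr11:82951902-82952101, plus strand): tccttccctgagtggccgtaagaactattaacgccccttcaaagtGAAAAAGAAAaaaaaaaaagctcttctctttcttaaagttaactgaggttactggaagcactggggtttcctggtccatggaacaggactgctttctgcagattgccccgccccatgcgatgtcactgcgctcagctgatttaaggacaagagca
Ifih1 (chr2:62646206-62646233, minus strand): gaagagaatcGAAACAGAAAccgatctg
Ifit3 and Ifit3b share the same pair of matches in the same order, set 34 bases apart, and the surrounding letters are nearly alike. Isg15 has 3 overlapping matches, which begin 78, 72 and 66 bases before the start. Of the 9 genes that fell and have a window, 6 held the letters, against 3.75% of 8818 tested genes outside the interferon list and 3.44% of all 32851 windows. The windows of Ifit2, Trim25 and Aftph had no match, nor had those of Zdhhc16 and Lyz1, which rose. A match is a description of the letters and was not measured as a bound site. Among 36 interferon-list genes with a window, 24 held the letters (66.7%).

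Total counts ran from 4018800 to 5966708 in Grn KO with rimeporide and from 4422194 to 7929470 in Grn KO with DMSO. In WT they ran from 4204624 to 5609719 with rimeporide and from 3666367 to 5818416 with DMSO. The medians with rimeporide and DMSO were 4098240 and 6659960 in Grn KO, and 4832230 and 5202970 in WT. Depth thus differed by treatment in Grn KO, though the ranges overlapped, and its part in the results was not tested. Grn, the targeted gene, had 13.7 to 24.2 CPM (counts scaled to the size of the library) in Grn KO with rimeporide and 10.7 to 15.2 CPM in Grn KO with DMSO, against 1597 CPM or more in every WT library, so the labels of genotype hold. The summed level of 16 microglia and macrophage markers ran from 6391 to 7393 CPM with rimeporide and from 6121 to 7110 CPM with DMSO. Summed markers of neurons and of astrocytes differed by genotype. Those of the oligodendrocyte lineage overlapped, at 68.3 to 126 CPM in WT and 91.4 to 119 CPM in Grn KO. Neuron markers summed to 76.3 to 106 CPM in Grn KO with rimeporide and 64.2 to 124 CPM in Grn KO with DMSO, and to 13.2 to 24.9 CPM in WT with rimeporide and 15.3 to 21.2 CPM in WT with DMSO. Astrocyte markers summed to 79.1 to 107 CPM in Grn KO with rimeporide and 86.7 to 124 CPM in Grn KO with DMSO, and to 21.3 to 37.1 CPM in WT with rimeporide and 17.0 to 36.1 CPM in WT with DMSO. Within each genotype the rimeporide and DMSO ranges overlapped. Of the listed markers 9 of 15 for neurons, 12 of 15 for astrocytes, 9 of 14 for the oligodendrocyte lineage, 7 of 15 for fibroblast, endothelial and mural cells and 2 of 16 for lymphocytes, granulocytes and mast cells had enough counts to be tested. None of these members passed the test in edgeR's quasi-likelihood test, and 3 had an unadjusted p under 0.05. In such bulk libraries, fewer cells of a type and less RNA per cell cannot be told apart.

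Libraries also stood apart in the counts given to processed pseudogenes, which are copies of spliced mRNAs and share sequence with their parent genes. The mean centred log2 CPM of 933 of them was between 0.13 and 0.59 in Grn KO with rimeporide, and was -0.77, 0.12, -0.54 and -1.01 in replicates 1 to 4 of Grn KO with DMSO. In WT it ran from -0.12 to 0.52 with rimeporide and from -0.14 to 0.30 with DMSO. Within Grn KO this score moved with treatment, while in WT the ranges overlapped, and its part in the results was not tested beyond its use as a covariate, given below. Grn KO DMSO replicates 1, 3 and 4, with the low scores, had total counts of 7929470, 6659395 and 6660529, against 4422194 in replicate 2.

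Over both genotypes 13 of 12272 tested genes passed, 0.106% of them, with an adjusted p under 0.05 in edgeR's quasi-likelihood test. Of these 10 fell with rimeporide (0.0815%) and 3 rose (0.0244%), and all 13 had the same sign in WT and in Grn KO, which a test over both genotypes favours. The largest falls were of antiviral genes that interferon induces. Ifit3b fell by 2.06 on the log2 scale, Ifit3 by 1.83, Ifit2 by 1.55 and Isg15 by 1.34. Irgm2, Slfn5, ENSMUSG00000120878, Ifih1, Trim25 and Aftph fell by smaller amounts, and Zdhhc16, Lyz1 and Stard3nl rose. The number that passed depended on the model and on single libraries. A model with 1 mean per group, whose average effect over the genotypes was tested, passed 449 genes (3.66%), 249 higher (2.03%) and 200 lower (1.63%), the 13 among them, and leaving out 1 library moved the count between 2 genes (without WT DMSO replicate 4, WT rimeporide replicate 3 or Grn KO rimeporide replicate 2) and 433 genes (without WT rimeporide replicate 4). At an unadjusted p under 0.05 there were 2398 genes (19.5%).

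The calls of single genes also rested on single libraries. Of the 16 fits that left out 1 library, Ifit3b and Irgm2 passed in all 16, Ifit3, Isg15 and Stard3nl in 12, Slfn5 in 11, Ifit2 and Ifih1 in 10, Trim25 in 9, Aftph and ENSMUSG00000120878 in 8, Lyz1 in 6 and Zdhhc16 in 5. Of the 13 genes, 2 passed without WT DMSO replicate 4, WT rimeporide replicate 3 or Grn KO rimeporide replicate 2, 3 without Grn KO rimeporide replicate 1, 5 without Grn KO DMSO replicate 1, 7 without WT rimeporide replicate 2 and 8 without Grn KO DMSO replicate 4. In each of the other 9 fits at least 9 of the 13 passed.

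**Figure D1:**
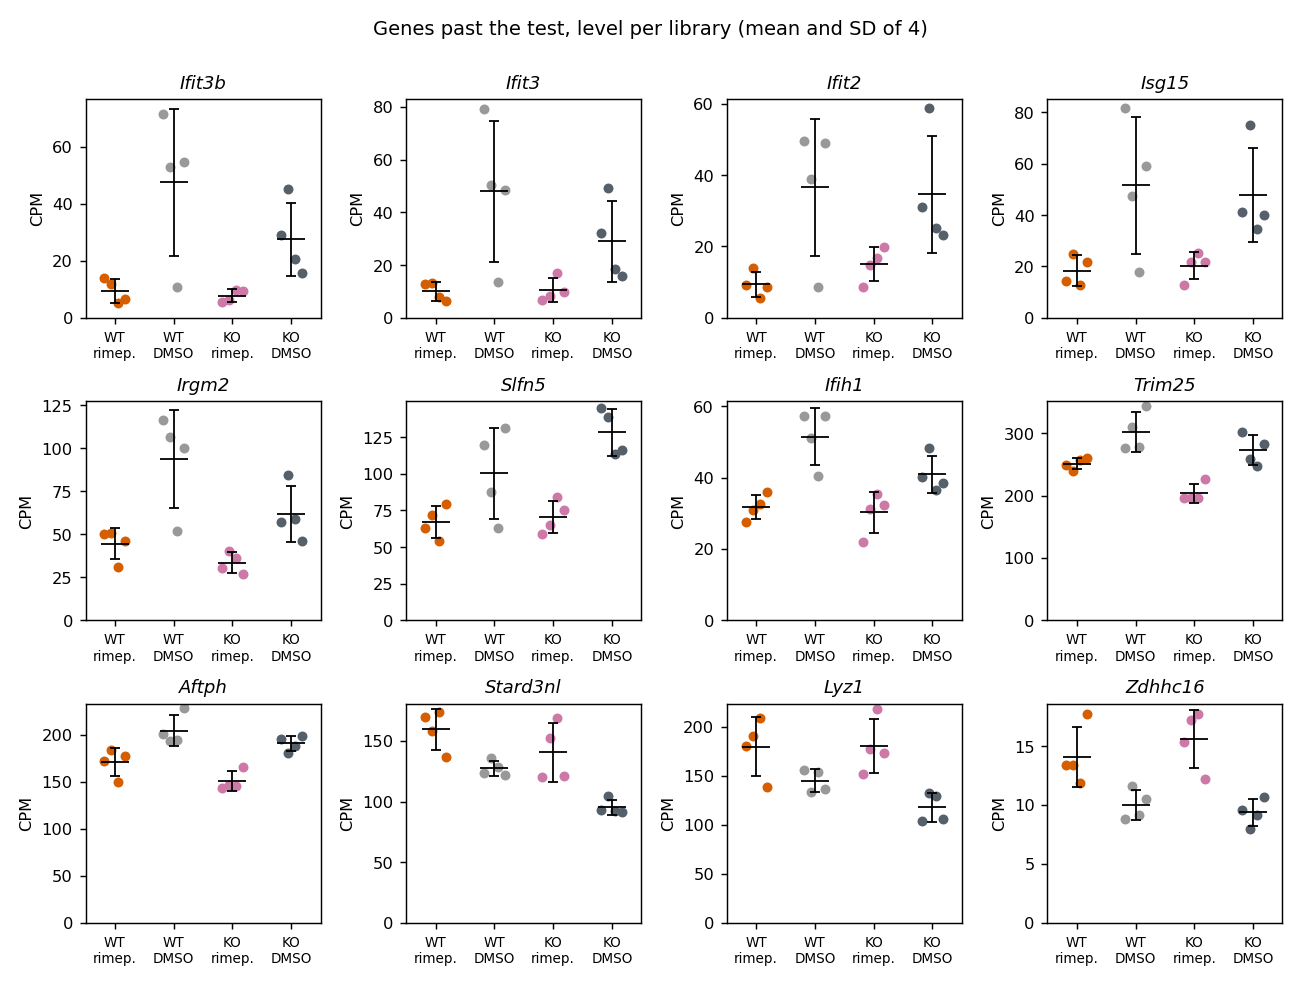
Level in CPM (y axis, from 0) of the 12 named genes that passed, in each library of the 4 groups (x axis); points are libraries, and the bar and whiskers are the mean and SD of 4. Ifih1 lay at 35.9 CPM or below in all 8 rimeporide libraries and at 36.6 CPM or above in all 8 DMSO libraries, and Zdhhc16 had at least 11.9 CPM with rimeporide and at most 11.6 CPM with DMSO.

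The IFIT family encodes antiviral proteins, some of which bind viral RNA and block its translation, and 3 of its 4 listed members fell. Ifit3b had 13.9, 11.9, 5.27 and 6.53 CPM in WT with rimeporide, against 71.6, 52.9, 10.9 and 54.6 CPM in WT with DMSO. In Grn KO it had 5.52, 6.38, 9.86 and 9.47 CPM with rimeporide, against 28.9, 45.0, 20.6 and 15.7 CPM with DMSO. The Grn KO groups did not overlap, whereas WT DMSO replicate 3, at 10.9 CPM, lay within the range of WT with rimeporide. The log2 fold change was -2.06 ± 0.31 (SE, 8 libraries against 8; adjusted p = 0.0116 in edgeR's quasi-likelihood test), a level 4.17-fold lower, and it was -1.77 in Grn KO and -2.31 in WT.

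Ifit3, a near-identical neighbour of Ifit3b that can share its 3' tags, had 12.7, 13.4, 7.91 and 6.33 CPM in WT with rimeporide, against 79.4, 50.4, 13.7 and 48.3 CPM in WT with DMSO. In Grn KO, Ifit3 had 6.78, 8.35, 16.9 and 9.97 CPM with rimeporide, against 32.3, 49.4, 18.4 and 15.995 CPM with DMSO. The WT groups were apart by a small gap, in Grn KO rimeporide replicate 3 lay above DMSO replicate 4, and the change was -1.83 ± 0.31 (adjusted p = 0.022, edgeR). The sources used here do not say how reads were divided between Ifit3 and Ifit3b, so the values of the pair are uncertain one by one. Ifit2 had 5.49 to 14.1 CPM in WT with rimeporide and 8.66 to 49.6 CPM in WT with DMSO. In Grn KO, Ifit2 had 8.79 to 19.9 CPM with rimeporide and 23.2 to 58.7 CPM with DMSO, with no overlap. Ifit1, the fourth member, had a change of -1.44 ± 0.33 that missed the threshold (adjusted p = 0.0657 in edgeR's quasi-likelihood test).

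Isg15, a ubiquitin-like protein that is attached to other proteins during antiviral responses, had 14.3, 25.0, 12.7 and 21.6 CPM in WT with rimeporide, against 81.7, 47.4, 17.7 and 59.2 CPM in WT with DMSO. In Grn KO, Isg15 had 12.8, 21.8, 25.1 and 21.7 CPM with rimeporide, against 41.2, 74.8, 34.6 and 40.0 CPM with DMSO. Again the Grn KO groups were apart and WT DMSO replicate 3 lay within the WT rimeporide range. The change was -1.34 ± 0.24 (adjusted p = 0.022, edgeR). Trim25, a ubiquitin ligase that acts with the RNA sensor RIG-I and also as a ligase for ISG15, had 239.9 to 259.6 CPM in WT with rimeporide and 277 to 343 CPM in WT with DMSO. In Grn KO, Trim25 had 196 to 226 CPM with rimeporide and 247 to 301 CPM with DMSO. In each genotype all 4 rimeporide libraries were below all 4 DMSO libraries, and the change was small, at -0.34 ± 0.06. The ISG15 protease Usp18, which also damps the interferon receptor, changed by -1.13 ± 0.37 (adjusted p = 0.127), and the ligase Herc6 by -0.38 ± 0.16 (adjusted p = 0.207), so neither passed.

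Ifih1 encodes MDA5, a cytosolic sensor of long double-stranded RNA. It had 27.7, 30.8, 32.5 and 35.9 CPM in WT with rimeporide, against 57.3, 51.0, 40.4 and 57.2 CPM in WT with DMSO. In Grn KO, Ifih1 had 21.8, 31.2, 35.4 and 32.4 CPM with rimeporide, against 40.2, 48.2, 36.6 and 38.5 CPM with DMSO. Every rimeporide library was below every DMSO library over both genotypes, which was so for 3 of the 12272 genes (0.0244%). The change was -0.56 ± 0.11 (adjusted p = 0.0341 in edgeR's quasi-likelihood test), -0.42 in Grn KO and -0.70 in WT. Among the other sensors and RNA-binding effectors, Eif2ak2, the kinase PKR that halts translation, had a change of -0.61 ± 0.13 and an adjusted p of 0.0585. Ddx58, which encodes RIG-I, had -0.54 ± 0.18, Zbp1, a sensor of left-handed nucleic acid, -0.87 ± 0.31, and Dhx58, a regulator of these sensors, -0.42 ± 0.23, with adjusted p between 0.135 and 0.308.

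Irgm2 and Slfn5 are interferon-inducible genes of other families. Irgm2, an immunity-related GTPase of the defence against intracellular pathogens, had 50.4, 50.7, 31.2 and 45.9 CPM in WT with rimeporide, against 116, 107, 51.8 and 100.0 CPM in WT with DMSO. In Grn KO, Irgm2 had 30.4, 40.5, 35.9 and 26.9 CPM with rimeporide, against 57.3, 84.6, 58.8 and 46.2 CPM with DMSO. In each genotype the groups did not overlap, and the change was -0.97 ± 0.15 (adjusted p = 0.0133, edgeR). Slfn5, a Schlafen family gene, had 54.2 to 79.2 CPM in WT with rimeporide and 62.7 to 131 CPM in WT with DMSO. In Grn KO, Slfn5 had 59.2 to 83.9 CPM with rimeporide and 114 to 145 CPM with DMSO. Its groups overlapped only in WT, where DMSO replicate 3 was the low library, and the change was -0.72 ± 0.13 (adjusted p = 0.022, edgeR).

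The whole interferon list, which does not include Irgm2 and Trim25, held 50 genes, of which 47 had enough counts to be tested. Of these 47, 6 fell and 0 rose, against 0.0815% and 0.0244% of all tested genes. At an unadjusted p under 0.05, 38 of the 47 were lower, against 9.49% of all tested genes. The log2 fold change was negative for all 47 (49.9% of all genes), and for 43 it was negative in both genotypes (26% of all genes). The members moved together by library. In WT DMSO replicates 1 to 4, 0, 8, 36 and 0 of the 47 lay below their median over the 16 libraries. These counts are therefore not 47 separate results, and the list was written with earlier results of these data known. The median over the list was -0.63, with -0.42 in Grn KO and -0.88 in WT, while the median of all genes was 0.00 over both genotypes. The model with 1 mean per group passed 20 of the 47, all lower, against 1.63% of all genes lower there. In the genotype and treatment model, single left-out libraries moved the count between 1 and 19 genes. It was 1 without WT DMSO replicate 4, WT rimeporide replicate 3, Grn KO rimeporide replicate 1 or Grn KO rimeporide replicate 2, and 19 without WT DMSO replicate 3. With the pseudogene score as a covariate 17 of the 47 fell, against 36 of all 12272 tested genes, and the list median was -0.87.

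**Figure D2:**
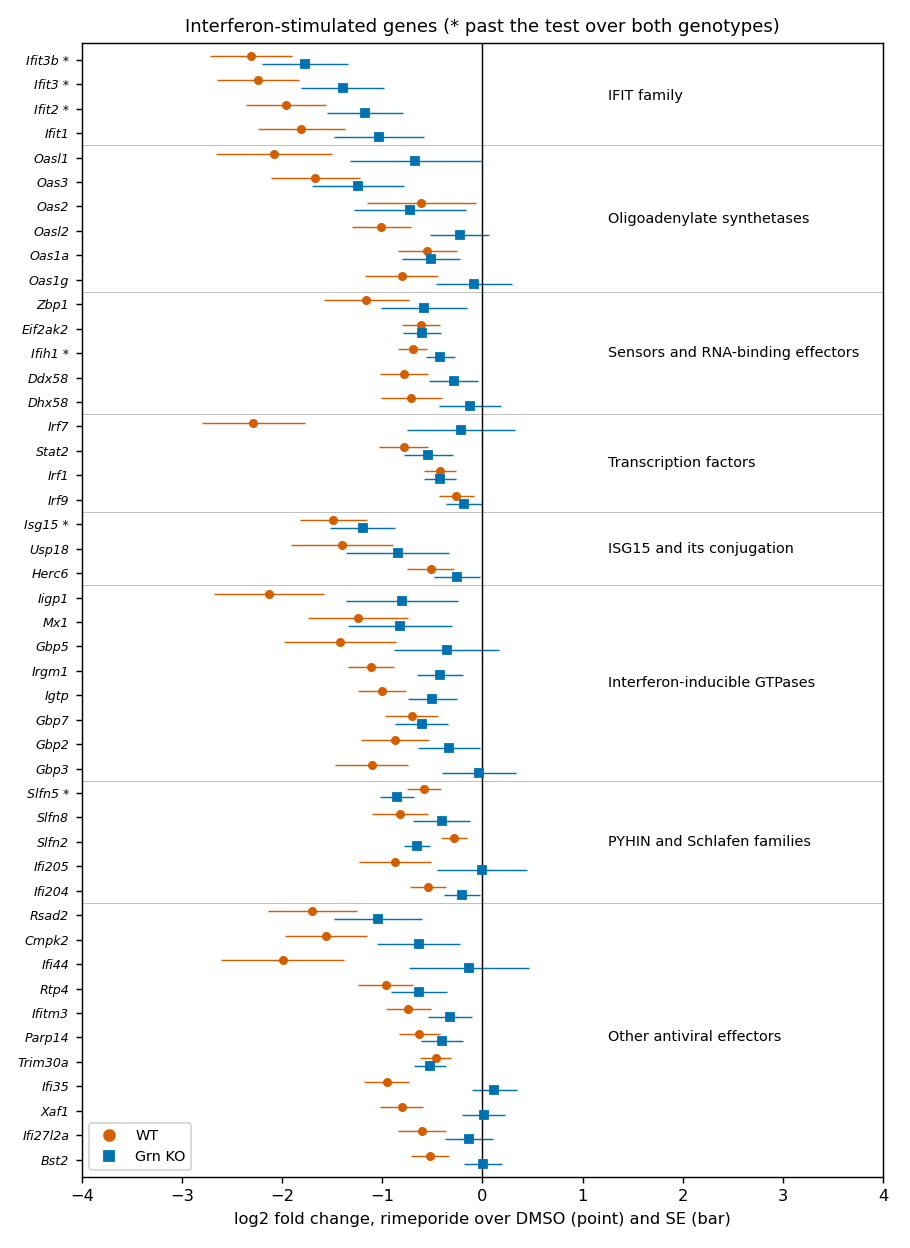
Log2 fold change of rimeporide over DMSO with its SE (x axis) for 46 of the 47 tested interferon-stimulated genes (y axis), grouped by role, in WT (circles) and Grn KO (squares); stars mark genes that passed over both genotypes. Nearly all points lie left of 0, and the median of all 47 was -0.42 in Grn KO and -0.88 in WT.

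By role, the IFIT genes had a median change of -1.69, ISG15 and its conjugation -1.13, the interferon-inducible GTPases -0.76, the oligoadenylate synthetases -0.65, the sensors -0.56, other antiviral effectors -0.52, PYHIN and Schlafen genes -0.47 and the transcription factors -0.42. Oas3, which makes the second messenger that activates RNase L, had 2.82 to 6.31 CPM in WT with rimeporide and 3.46 to 22.7 CPM in WT with DMSO. In Grn KO, Oas3 had 2.99 to 4.68 CPM with rimeporide and 5.62 to 16.8 CPM with DMSO, for a change of -1.47 ± 0.32 (adjusted p = 0.0585, edgeR). Rsad2, which encodes the antiviral enzyme viperin, had 62.6 to 247 CPM in WT with rimeporide and 110.5 to 613 CPM in WT with DMSO, with a change over both genotypes of -1.37 ± 0.33 (adjusted p = 0.0719). Neither gene passed, and both had overlapping groups in WT.

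The transcription factors of the pathway had the smallest median change. Irf7, which amplifies the response, had 3.35, 7.53, 6.59 and 4.69 CPM in WT with rimeporide, against 55.4, 12.7, 7.45 and 30.8 CPM in WT with DMSO. In Grn KO, Irf7 had 5.02, 3.19, 11.0 and 7.23 CPM with rimeporide, against 6.23, 17.7, 6.37 and 3.32 CPM with DMSO. The WT DMSO libraries spread widely and the Grn KO groups overlapped, with changes of -0.22 ± 0.54 in Grn KO and -2.29 ± 0.51 in WT. Stat2, which is part of the complex at the ISRE, had -0.54 ± 0.25 in Grn KO and -0.79 ± 0.24 in WT. Over the 5 tested transcription factors the change over both genotypes ran from -1.31 to -0.23, and 0 passed. Of the list, 16 genes in Grn KO were lower at an unadjusted p under 0.05, against 13.9% of all genes, and 44 genes in WT, against 3.12% of all genes. With an adjusted p under 0.05, 8 of the 47 passed in Grn KO, all lower, against 6.35% of all genes lower there. In WT 0 of the 47 passed, as did 0% of all genes. The test of the difference between genotypes passed 2 of all genes (0.0163%) and 0 of the 47, with 6 of the 47 at an unadjusted p under 0.05 (18.6% of all genes), among them Irf7 and Ifi35.

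**Figure D3:**
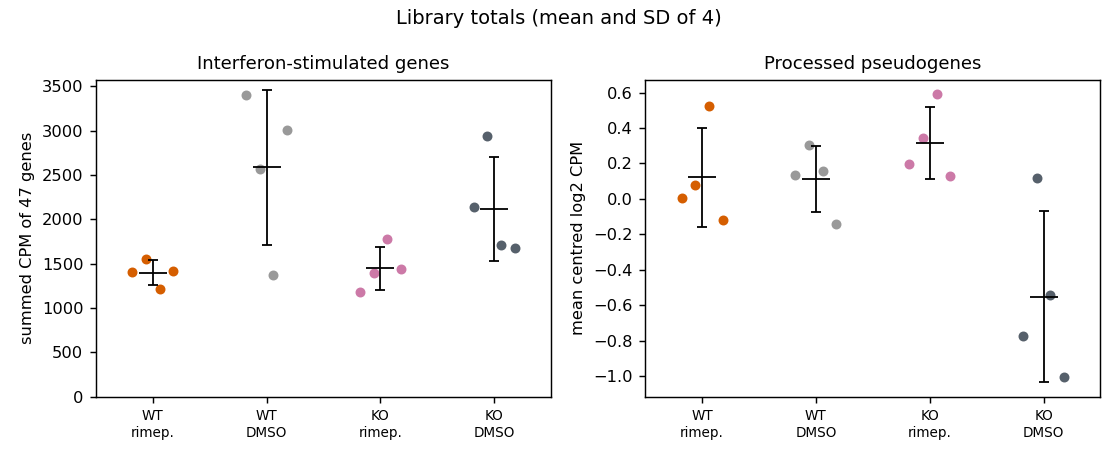
Left, summed CPM of the 47 tested interferon-stimulated genes per library; right, mean centred log2 CPM of processed pseudogenes; groups on the x axis, points are libraries, bar and whiskers the mean and SD of 4. WT DMSO replicate 3, at 1378 CPM, lay within the range of WT with rimeporide, and 3 of the 4 Grn KO DMSO libraries had pseudogene scores of -0.54 or lower.

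Summed over the 47 genes, the level was 1408, 1551, 1212 and 1422 CPM in WT with rimeporide, against 3399, 2564, 1378 and 3006 CPM in WT with DMSO. In Grn KO the sum was 1183, 1392, 1777 and 1443 CPM with rimeporide, against 2144, 2943, 1709.7 and 1681 CPM with DMSO. In WT the lowest DMSO library lay inside the rimeporide range, and in Grn KO rimeporide replicate 3 lay above both Grn KO DMSO replicates 3 and 4. The spread among DMSO libraries was wider than that among rimeporide libraries, with an SD of 734 CPM over the 8 DMSO libraries and 187 CPM over the 8 rimeporide libraries.

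Outside the list, 6 interferon-linked genes that did not pass were picked after their changes were seen to be negative. Their shared direction therefore carries no weight. Dtx3l, a ubiquitin ligase that works with an interferon-induced ADP-ribosyltransferase, had a change of -0.57 ± 0.12 (adjusted p = 0.0526). Sp110 and Sp100, nuclear body proteins, had -0.46 ± 0.10 and -0.52 ± 0.13, Ube2l6, the conjugating enzyme of ISG15, -0.36 ± 0.08, Ifi47, an immunity-related GTPase, -0.86 ± 0.20, and Samhd1, a dNTP hydrolase that restricts retroviruses, -0.32 ± 0.08. The model with 1 mean per group passed the 6 with adjusted p between 0.024 and 0.033. Ifnar1, a chain of the type I interferon receptor, had 0.73 in Grn KO and 0.21 in WT (adjusted p = 0.0719 over both), and Ifi27, an interferon-induced gene, had 0.24 in Grn KO and 0.26 in WT (adjusted p = 0.127 over both); these 2, also chosen after their values were seen, did not pass.

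The remaining 5 genes that passed were Zdhhc16, Stard3nl, Lyz1, Aftph and ENSMUSG00000120878. Zdhhc16, a palmitoyltransferase, had 13.4, 13.4, 11.9 and 17.8 CPM in WT with rimeporide, against 8.82, 11.6, 9.18 and 10.5 CPM in WT with DMSO. In Grn KO, Zdhhc16 had 15.3, 17.2, 17.7 and 12.2 CPM with rimeporide, against 9.59, 7.96, 9.18 and 10.7 CPM with DMSO. All 8 rimeporide libraries were above all 8 DMSO libraries, which was so for 6 genes (0.0489%), and the change was 0.62 ± 0.12 (adjusted p = 0.0462 in edgeR's quasi-likelihood test).

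Stard3nl, a membrane protein of late endosomes that tethers them to the endoplasmic reticulum, had 169.8, 158, 174 and 137 CPM in WT with rimeporide, against 124, 136, 129 and 121 CPM in WT with DMSO. In Grn KO, Stard3nl had 120.0, 153, 169 and 121 CPM with rimeporide, against 92.8, 105, 91.9 and 91.4 CPM with DMSO. In each genotype the groups did not overlap, and the change was 0.45 ± 0.08 (adjusted p = 0.022, edgeR). Lyz1, a lysozyme gene, had 138 to 209 CPM in WT with rimeporide and 133 to 156 CPM in WT with DMSO. In Grn KO, Lyz1 had 152 to 218 CPM with rimeporide and 104 to 132 CPM with DMSO, and its change was 0.46 ± 0.09 (adjusted p = 0.0492). Its near-identical partner Lyz2 had 3516 to 4548 CPM with rimeporide and 3064 to 3976 CPM with DMSO, changed by 0.11 ± 0.07 and did not pass, so the call of Lyz1 is uncertain where tags are shared.

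Aftph, whose protein aftiphilin acts in clathrin-coated vesicle traffic, had 150.0 to 184 CPM in WT with rimeporide and 193 to 228 CPM in WT with DMSO. In Grn KO, Aftph had 143 to 166 CPM with rimeporide and 180.2 to 199 CPM with DMSO, and the groups did not overlap in either genotype. The change was -0.30 ± 0.06 (adjusted p = 0.0462, edgeR). ENSMUSG00000120878, which has no symbol in the deposited gene table, had 363 to 499 CPM in WT with rimeporide and 500.1 to 725 CPM in WT with DMSO. In Grn KO, ENSMUSG00000120878 had 547 to 742 CPM with rimeporide and 978 to 1698 CPM with DMSO, and its change was -0.67 ± 0.12 (adjusted p = 0.0341).

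Counted over single libraries, 9 genes had 8 rimeporide libraries that did not overlap the 8 DMSO libraries (0.0733% of the genes tested). Besides Ifih1 and Zdhhc16, these named genes were Pfn1, Zfyve1, Fcer1g and Naa15 above and Dpcd below. Pfn1, which encodes the actin monomer-binding protein profilin, had a lowest, median and highest level of 144, 158 and 206 CPM with rimeporide, against 110.2, 132 and 143 CPM with DMSO, for a change of 0.35 ± 0.08 (adjusted p = 0.0585). Fcer1g, the signalling chain of Fc receptors, had 931, 995 and 1110.5 CPM with rimeporide, against 857, 915 and 926 CPM with DMSO. Those named other than Ifih1 and Zdhhc16 did not pass the test. Taking each genotype by itself, 14 genes were below DMSO in all 4 rimeporide libraries of both (0.114%), and 12 were above (0.0978%).

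**Figure D4:**
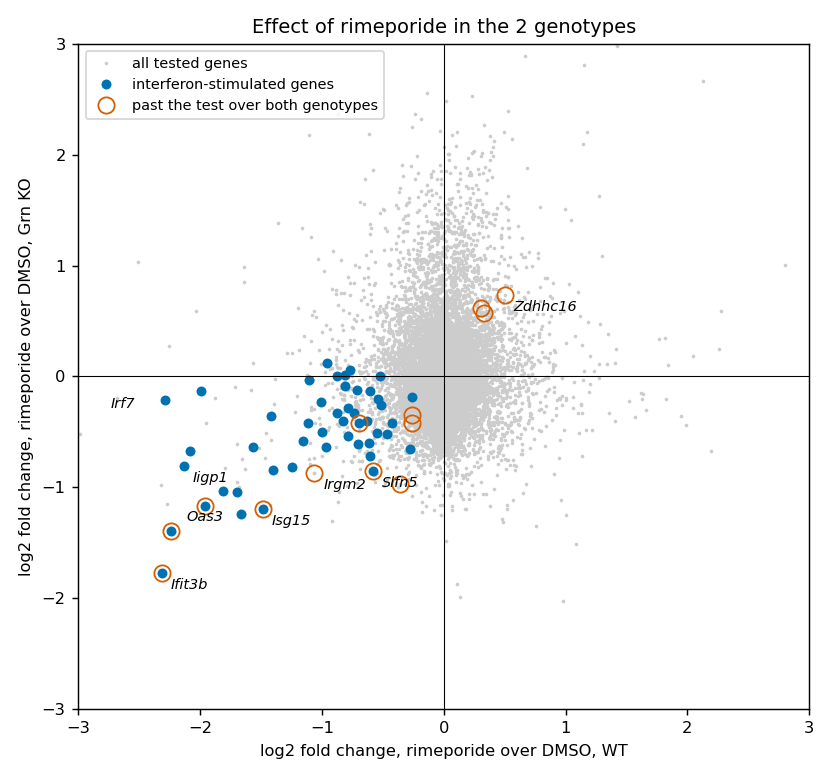
Log2 fold change of rimeporide over DMSO in WT (x axis) and in Grn KO (y axis) for each tested gene (grey), the 47 interferon-stimulated genes (filled) and the 13 genes that passed over both genotypes (open circles); 7 genes lie outside the axes. The spread of all genes is wider along the Grn KO axis than along the WT axis, and 43 of the 47 interferon genes lie at the lower left, below 0 on both axes.

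Across all tested genes the sign of the change was the same in WT and Grn KO for 52.6%, and the correlation of the log2 fold changes over genes, which are not independent replicates, was r = 0.08 and rho = 0.07. At an unadjusted p under 0.05 in each genotype, 139 genes went the same way, 73 lower (0.595%) and 66 higher (0.538%), and 42 went opposite ways. Tested within a genotype, 1813 genes passed in Grn KO (14.8%), 779 of them lower (6.35%) and 1034 higher (8.43%), and 0 in WT. In WT 676 of the 12272 genes had an unadjusted p under 0.05, where chance alone gives about 5%, against 3553 in Grn KO. DESeq2 passed 6 in WT. The 1813 genes that passed in Grn KO became 1 gene with the pseudogene score as a covariate, and 643 genes without Grn KO DMSO replicate 4. In Grn KO the score was at least 0.130 with rimeporide and at most 0.116 with DMSO, and it is itself a mean over tested genes. The fit with the score therefore cannot tell an effect of treatment from the score there. The median absolute log2 fold change was 0.22 in Grn KO and 0.12 in WT.

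In the model with 1 mean per group, 425 of the 449 genes went the same way in both genotypes, 236 higher and 189 lower. The other 24 went opposite ways. A call on the average of both effects favours equal signs, so this count cannot show whether there is a common response. For 395 of the 449 the change was larger in Grn KO. By annotation 325 were protein-coding and 114 were processed pseudogenes, which made up 25.4% of the 449, against 7.6% of all tested genes. With the pseudogene score added to the same model 17 genes passed, all lower, of which 12 were interferon-list genes and 6 were among the 13. With the score added to the genotype and treatment model 36 genes passed, 0 higher and 36 lower, with 8 of the 13 among them. The rises of Zdhhc16, Stard3nl and Lyz1 did not pass there.

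The drug acts on sodium-proton exchange, and of 20 tested genes of that process and of pH regulation 0 passed. At an unadjusted p under 0.05, 1 was higher and 4 were lower, against 10% higher and 9.49% lower of all genes. The list median was -0.06, and 0.00 with the pseudogene score as a covariate. The bicarbonate cotransporter Slc4a7 had 0.30 ± 0.10 and the related membrane transporter Slc4a11 -0.71 ± 0.27.

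The series title concerns lysosomal acidification, and the lysosomal lists are given for that reason. Of 23 tested V-ATPase subunits and assembly genes 0 passed and 5 were lower at an unadjusted p under 0.05 (9.49% of all genes), with a list median of -0.09 that was -0.03 with the pseudogene score as a covariate. The accessory subunit Atp6ap1 had 352, 429.9 and 517 CPM as lowest, median and highest level with rimeporide, against 431, 511 and 631 CPM with DMSO, for a change of -0.27 ± 0.08 (adjusted p = 0.0917), and the groups overlapped. Of 40 lysosomal membrane genes 0 passed, 13 were lower and 1 higher at an unadjusted p under 0.05 (9.49% and 10% of all genes), with a median of -0.12 that was -0.07 with the pseudogene score. In the model with 1 mean per group 5 of the 40 were lower, against 1.63% of all genes. These included Scarb2, which carries glucocerebrosidase to lysosomes, with -0.49 in Grn KO and -0.10 in WT, and Slc15a4, a proton-coupled transporter that takes part in endosomal Toll-like receptor signalling, with -0.22 in Grn KO and -0.31 in WT. Of 50 hydrolases and cofactors 0 passed, with 9 lower and 1 higher at an unadjusted p under 0.05 (9.49% and 10% of all genes) and a median of -0.03. Autophagy genes, 33 tested, had 0 passed, 5 lower and 1 higher at that level (9.49% and 10% of all genes). Ulk1, which starts autophagosome formation, had -0.98 in Grn KO and -0.08 in WT.

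**Figure D5:**
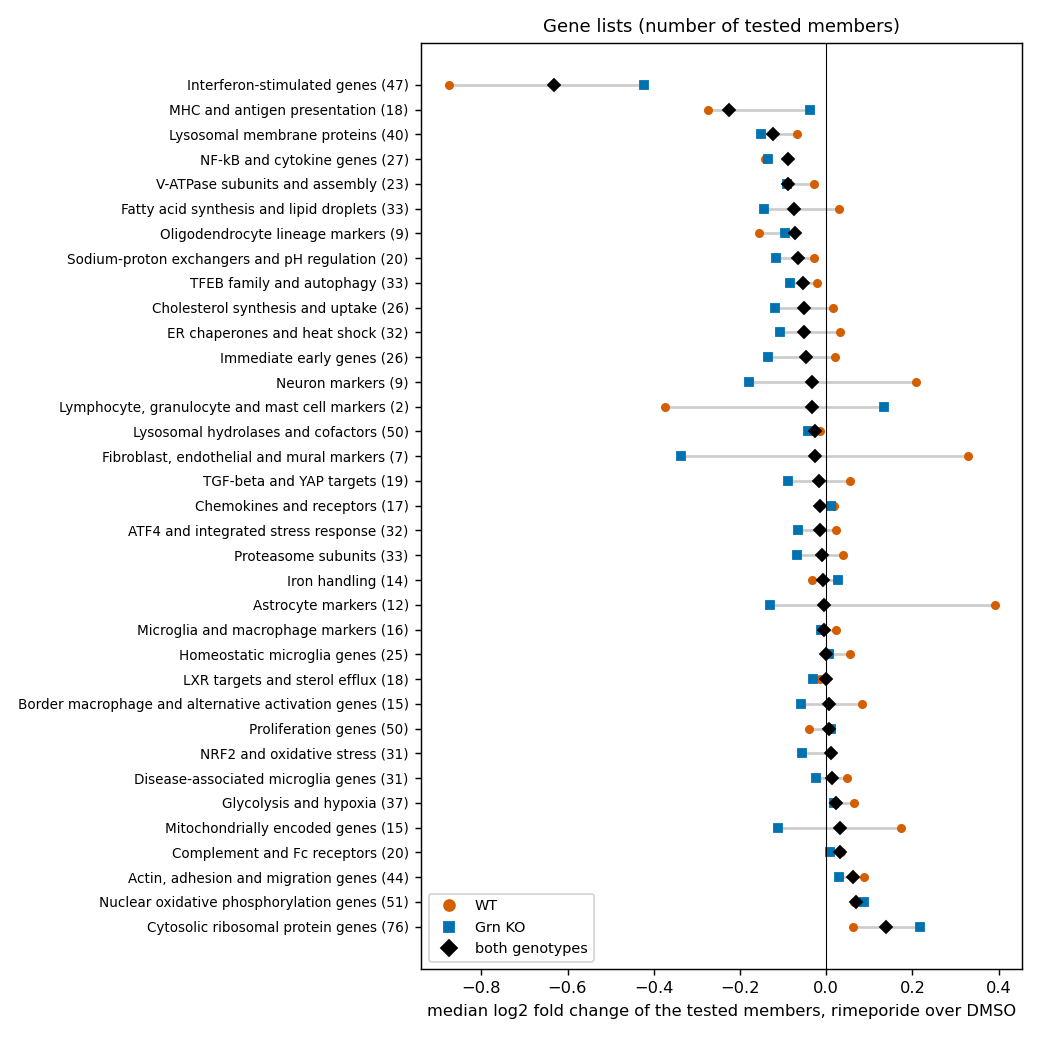
Median log2 fold change of rimeporide over DMSO (x axis) of the tested members of each gene list (y axis, number tested in parentheses), in WT (circles), Grn KO (squares) and over both genotypes (diamonds). The interferon list stands at -0.63 over both genotypes, antigen presentation is next at -0.22, and ribosomal protein genes are at 0.14.

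Antigen presentation genes had the next lowest median, -0.22 over 18 tested genes, with 0 passed and 6 lower at an unadjusted p under 0.05 (9.49% of all genes). The median was -0.04 in Grn KO and -0.27 in WT, and 4 of the 18 had opposite signs in the 2 genotypes. The peptide transporter genes Tap1 and Tap2 had changes of -0.50 ± 0.16 and -0.43 ± 0.14, and H2-D1, a classical class I gene, -0.23 ± 0.06. H2-DMb1, which loads peptides on class II molecules, had -0.86 in Grn KO and -0.29 in WT. Among 17 tested chemokine genes 0 passed and 2 were lower at that level (9.49% of all genes). Ccl5, which draws T cells and monocytes and is itself induced by interferon, had 3.77, 4.59 and 10.4 CPM as lowest, median and highest level with rimeporide, against 6.19, 11.2 and 34.4 CPM with DMSO, for a change of -1.12 ± 0.27 (adjusted p = 0.0777 in edgeR's quasi-likelihood test). The NF-kB and cytokine list had 0 of 27 passed, with 4 lower and 1 higher at that level (9.49% and 10% of all genes). The subunit gene Rela had -0.37 ± 0.10, and the feedback inhibitor Tnfaip3 had 0.50 ± 0.18.

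Cytosolic ribosomal protein genes had the highest median of the lists, 0.14 over 76 genes, with 0.22 in Grn KO and 0.06 in WT. With the pseudogene score as a covariate the median was 0.05 and no longer the highest. None passed in edgeR's quasi-likelihood test, 41 were higher and 0 lower at an unadjusted p under 0.05 (10% of all genes were higher at that level), and 12 were higher in the model with 1 mean per group (2.03% of all genes). Rpl26, of the large subunit, had a change of 0.27 ± 0.07. These genes have many processed pseudogenes that share their sequence, and the pseudogene score moved with treatment in Grn KO. The part of pseudogenes in these values was not tested. Nuclear oxidative phosphorylation genes had a median of 0.07 over 51, with 11 higher and 4 lower at an unadjusted p under 0.05 (10% and 9.49% of all genes). The 15 mitochondrially encoded genes had a median of 0.03, with -0.11 in Grn KO and 0.17 in WT, and of 0.15 with the pseudogene score. Of these 15, 11 had opposite signs in the 2 genotypes and 0 passed over both. Within Grn KO 1 passed higher and 3 lower (8.43% and 6.35% of all genes). The gene with the smallest p among them, mt-Nd3, had 387, 503 and 673 CPM with rimeporide, against 282, 387 and 498 CPM with DMSO, for a change of 0.44 ± 0.09 (adjusted p = 0.0585), and the groups overlapped.

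Microglial state genes were near the median of all genes. The homeostatic list had a median of 0.00 over 25 genes and the disease-associated list 0.01 over 31, with 0 passed in either. At an unadjusted p under 0.05, 2 homeostatic genes were higher and 0 lower, and 5 disease-associated genes were higher and 2 lower, against 10% higher and 9.49% lower of all genes. Lilrb4a, an inhibitory receptor, had 0.90 in Grn KO and 0.16 in WT, Trem2, a lipid-sensing receptor, 0.36 in Grn KO and 0.11 in WT, and the secreted protein Spp1 0.31 in Grn KO and 0.14 in WT. Those named were higher, but 15 of the 31 disease-associated genes had a negative change, and the list ran from -0.33 to 0.53. Stab1, a scavenger receptor, had 190.1, 263 and 289 CPM as lowest, median and highest level with rimeporide, against 174, 209 and 249 CPM with DMSO, for a change of 0.29 ± 0.06 (adjusted p = 0.0585). Ferritin genes had 0.32 ± 0.09 for Fth1 and 0.32 ± 0.11 for Ftl1, and both have processed pseudogenes, whose part was not tested. Of 50 proliferation genes 0 passed; Pcna, the sliding clamp of DNA replication, had 0.23 ± 0.06 and Top2a, a topoisomerase of dividing cells, -0.25 ± 0.08. Lists of cholesterol synthesis, LXR targets, lipid droplets, NRF2, ATF4, heat shock, immediate early, glycolysis, actin, TGF-beta and proteasome genes had medians between -0.07 and 0.06 and 0 members passed.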

How the data were processed

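RNA of 16 libraries was read as 3' tags with molecular identifiers, per the labels' protocols. The authors' files give expected counts for 56980 genes, made with Salmon on GRCm39 per the submitters' processing notes. The sources used here do not state whether duplicates were removed. A second deposited table of log2 CPM served only as a check on the counts. Expected counts, 13.7% of them not whole, were rounded. Genes were kept with edgeR 4.0.16 (R 4.3.3) by filterByExpr (minimum count 10, minimum total 15), which left 12272, and scaled by TMM. The quasi-likelihood F test was fitted to genotype and treatment over 16 libraries, and genes passed at a Benjamini-Hochberg adjusted p under 0.05. The SE is the size of the log2 fold change divided by the root of F. Effects within a genotype, their difference and their average came from a model with 1 mean per group. DESeq2 1.42.0 was an alternative. Biotypes came from GENCODE M21, with 115 tested genes unmatched. The code was tested on simulated data. The comparison, the lists and the named genes were chosen with earlier results of these data known. Genes were named by size of change, by smallest p and as the leading members of each list; those added after their values were seen are said to be so. A few genes are not reported here. Alternatives were scaling, filters, replicate blocks, DESeq2, the pseudogene score and leaving out each library.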

Additional observations from a re-analysis of the deposited data

Results flagged for a closer look

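In groups of 4 libraries, a value was listed here when its gap to the nearest other library exceeded Dixon's critical share of the whole range, for 68 groups of values; chance lists about 1 in 20 groups, and 7 were listed. In Grn KO with rimeporide, replicate 4 had the highest Trim25, at 226 CPM, the others lying between 196 and 197 CPM, and the highest Aftph, at 166 CPM, the others lying between 143 and 146 CPM. Replicate 3 of that group had a total count of 5966708, and the others had 4018800 to 4128663. In Grn KO with DMSO, replicate 2 had the highest Stard3nl (105 CPM, others 91.4 to 92.8 CPM), the highest Isg15 (74.8 CPM, others 34.6 to 41.2 CPM) and the lowest Lyz2 (3064 CPM, others 3901 to 3976 CPM). In WT with DMSO, replicate 4 had the highest ENSMUSG00000120878 (725 CPM, others 500.1 to 535 CPM).

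The effect of rimeporide differed between the genotypes for 2 genes in edgeR's quasi-likelihood test of the difference (0.0163% of those tested, each with adjusted p = 0.0368), against 2277 at an unadjusted p under 0.05 and 276 with DESeq2. Ncaph2, a condensin II subunit, had 41.7 to 61.6 CPM in Grn KO with rimeporide and 32.4 to 37.5 CPM in Grn KO with DMSO, and 33.9 to 42.1 CPM in WT with rimeporide and 45.8 to 52.4 CPM in WT with DMSO; its effect in Grn KO minus that in WT was 0.98 on the log2 scale. Fbxo34, an F-box protein gene, had 40.1 to 45.2 CPM in Grn KO with rimeporide and 24.6 to 33.2 CPM in Grn KO with DMSO, and 33.7 to 40.4 CPM in WT with rimeporide and 45.7 to 54.7 CPM in WT with DMSO, with a difference of 0.94. Neither gene's groups overlapped within a genotype.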

How the results depend on the processing

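The 13 genes that passed, 3 higher and 10 lower, kept their sign under every alternative tried, but the number that passed varied. The count was 449 (249 higher, 200 lower) with 1 mean per group, 346 (183 higher, 163 lower) with DESeq2 and 774 (443 higher, 331 lower) with no filter on low counts. With the pseudogene score it was 36 (0 higher, 36 lower), and with the score and 1 mean per group, chosen after seeing the data, 17 (0 higher, 17 lower). Total count scaling and a filter of at least 1 CPM in 4 libraries left 1 higher gene each, and DESeq2-type size factors gave 12 genes. Interferon-list genes lower numbered 20, 19, 35, 17 and 12 under the first 5 of these settings, against 6. With 1 library left out, 2 to 433 genes passed, 0 to 239 higher and 2 to 194 lower, and 1 to 19 interferon genes were lower. The cause of these shifts was not tested.

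Within genotypes, the count in WT was 6 with DESeq2, 2 with the pseudogene score and 0 to 40 with 1 library left out. In Grn KO, where the score moved with treatment, it was 1 with the score, and 643 to 3002 with 1 library left out. For the difference between genotypes it was 276 with DESeq2, 0 with the score and 0 to 1497 with 1 library left out; the 1497 came without Grn KO DMSO replicate 2, and 253 passed without WT rimeporide replicate 3.

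Libraries of the same replicate number were compared for pairing. Correlations of their deviations ran from 0.00 to 0.19, with 4 of 8 pairs over 0.1 and 4 of 8 closest to their own number. With not every pair over 0.1, the numbers were not taken to pair the samples in the main model. These values do not decide whether the samples are paired. With a replicate block within genotype 79 genes passed (40 higher, 39 lower) and with a block across genotypes 385 (205 higher, 180 lower; 19 interferon genes lower). The block within genotype gave 8 genes in WT and 690 for the difference.

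Total counts began at 3666367 per library, and how depth limits detection was not tested.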
